A study of Mus musculus with 20 samples.

Results

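Transcripts of 10 subunits of voltage-gated calcium channels were followed in cultured mouse neurons made to fire in different patterns. Cacna1a, Cacna1b, Cacna1c, Cacna1e and Cacna1h encode pore-forming α1 subunits, Cacna2d1 and Cacna2d2 encode α2δ subunits, and Cacnb1, Cacnb3 and Cacnb4 encode β subunits. They were found in the array annotation by gene name, with every probe that is not a control, which gave 15 probes for 10 of the 30222 gene names on the array. Of the 10 genes, 7 had at least 1 probe that passed the spot filter in all 20 samples and were tested among 10355 genes. For Cacna1b, Cacna1c and Cacna1e no probe passed, and their values are described without a test across the filtered genes.

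The neurons came from NIH Swiss mouse embryos at day 13.5 and are labelled as dorsal root ganglion (DRG) neurons, although the growth protocol names the spinal cord as their source. They were grown in compartmented chambers with nerve growth factor and treated with an inhibitor of cell division against non-neuronal cells, and each condition was made from pooled cultures. All cultures, controls included, were moved to medium free of nerve growth factor and serum on the evening before. Each burst held 18 action potentials and came once per min (18/1), or held 90 and came once per 5 min (90/5), evoked with biphasic pulses of 6 V and 0.2 ms for 2 hr or 5 hr, so that both patterns delivered equal numbers of action potentials, and unstimulated cultures from the same dissection were handled alike but received no pulses. Each of these 5 conditions was measured in 4 samples on 2 arrays, with 1 sample in the Cy3 and 1 in the Cy5 colour of each array. The study's methods call the samples of a condition biological replicas and describe each condition as pooled cultures, and how the pools were divided among the samples is not given in the sources used here. Arrays 1 and 2 (unstimulated) and 3 and 4 (18/1 2 hr) shared slide 1, arrays 5 and 6 (18/1 5 hr) and 7 and 8 (90/5 2 hr) shared slide 2, and arrays 9 and 10 (90/5 5 hr) lay on slide 3. Only 18/1 2 hr against unstimulated and 90/5 2 hr against 18/1 5 hr are therefore comparisons within a slide, and in the others slide and condition cannot be told apart.

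Voltage-gated calcium channels open when the membrane is depolarized, and the calcium that enters during action potentials couples firing to transmitter release, to excitability and to transcription in the nucleus. The α1 subunit forms the pore and the voltage sensor, the cytoplasmic β subunit helps to bring the α1 subunit to the membrane and sets its gating, and the α2δ subunit, which faces the outside of the cell, raises the number of channels at the surface. Sensory neurons of the DRG carry channels of the P/Q, N, L, R and T types, and the α2δ subunits are the binding site of gabapentin and related pain drugs.

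The array values are normalized intensities on a log2 scale, and because each probe binds with its own strength, levels of different probes were not set against each other. The probes of each array are 60 bases long. Arrays 5, 6 and 8 of slide 2 stood apart before any gene was considered: in their samples between 3138 and 14642 spots were marked as non-uniform, against 6 to 36 on slide 1 and 37 to 85 on slide 3, and the median ratio of spot to background was 4.74 to 10.4, against 2.27 to 2.94 and 2.66 to 4.91. Array 7, also of slide 2, had 45 and 139 such spots and ratios of 3.83 and 3.64, near the values of slide 3. Of 15 DRG sensory neuron markers 14 were well above background in all 20 samples, as were 6 of 7 fibroblast, 6 of 9 Schwann or satellite cell, 3 of 4 macrophage or microglia, 1 of 4 astrocyte, 0 of 4 spinal motor neuron and 0 of 4 skeletal muscle markers. The Schwann cell marker Erbb3 was the only listed marker that was well above background in no sample. In the same order 13, 5, 2, 1, 0, 1 and 0 of them passed the spot filter, and the 1 motor neuron marker that passed, Slc18a3, was called lower after 18/1 for 5 hr (-1.13). The comparison of 18/1 5 hr with unstimulated neurons called 44.6% of all genes. Of the 13 DRG markers that passed, 1 was called higher and 1 lower there. Their summed log2 level ran from 18.90 to 19.51 in the 18/1 5 hr samples and from 19.26 to 19.35 in the unstimulated samples. For the 5 fibroblast markers that passed, the summed log2 level lay between 16.51 and 16.75 in the 18/1 5 hr samples and between 14.61 and 16.05 in the unstimulated samples, with 1 of the 5 called higher. The summed level of the 2 Schwann or satellite cell markers ran from 14.90 to 16.34 in the 18/1 5 hr samples and from 16.03 to 16.17 in the unstimulated samples, and the 1 macrophage marker was not called. The part of these other cells' transcripts in the results was not tested.

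With 1 probe standing for each gene, Cacnb1 and Cacnb3 were the subunit genes called lower after 5 hr of the 18/1 pattern, and neither was called after 5 hr of the 90/5 pattern. A second probe of Cacna2d1 was also lower after 18/1 for 5 hr, as described with that gene. Each was read by a single probe, and the first 30 bases of both are shown because the probes share a G and C content of 55% over their full length.
Cacnb3 A_51_P259009: cttagcatctggtgagactggggaactggg
Cacnb1 A_55_P2012563: ttggaagatgcctgcgagcacctggctgag
The Cacnb3 probe (NM_007581) lies at chr15:98474610-98474669 on the plus strand of mm9 and the Cacnb1 probe (NM_031173) at chr11:97866536-97866595 on the minus strand.

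For Cacnb3, a β subunit found in N-type channels of neurons, the unstimulated samples gave values of 12.66, 12.73, 12.58 and 12.78 (arrays 1 and 2, Cy3 before Cy5 on each array, as in all lists that follow). After 18/1 for 5 hr the values were 11.37, 11.49, 11.06 and 11.09, and after 90/5 for 5 hr they were 12.25, 12.75, 13.36 and 13.03. Each 18/1 5 hr sample thus lay below all samples of the other conditions. In between, 18/1 for 2 hr gave 12.11, 12.32, 12.67 and 12.33, and 90/5 for 2 hr gave 12.27, 12.72, 11.72 and 11.73, so that both 2 hr conditions overlapped the unstimulated range. The 18/1 5 hr mean of 11.25 ± 0.21 (SD, n = 4) was 1.44 (SE 0.30) below the unstimulated mean of 12.69 ± 0.09 on the log2 scale, a 2.70-fold difference (limma, adjusted p = 0.000677). Of all genes tested, 44.6% were called in this comparison and 29.7% were called lower, against 2 of the 7 members tested, a share near that of all genes. With arrays centred on their medians alone, the median over all genes in this comparison moved from -0.23 to -0.81 and the Cacnb3 difference to -2.06. With each sample's trend on the G and C content of the probes removed, the difference was -0.40 (adjusted p = 0.196) and was not called.

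For Cacnb1, a β subunit best known from skeletal muscle and also made in neurons, the spot was dim and its mark for being well above background was set in 14 of 20 samples. The values were 8.23, 7.76, 7.86 and 7.70 in unstimulated neurons and 6.62, 6.39, 6.65 and 6.62 after 18/1 for 5 hr, where no sample was well above background. Against unstimulated neurons the mean of Cacnb1 as normalized was therefore at least 2.24-fold lower, with a fitted difference of -1.32 (SE 0.24, adjusted p = 0.000193). This call was also lost with the G and C trend removed (-0.28, adjusted p = 0.322). After 90/5 for 5 hr the values were 8.21, 7.90, 7.83 and 7.98, all within the unstimulated range.

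Set against each other at 5 hr, the patterns differed in both β subunit genes as normalized, and in neither with the G and C trend removed. With 90/5 Cacnb3 was 1.60 (SE 0.30) higher on the log2 scale than with 18/1, a 3.02-fold difference (adjusted p = 0.000241), and Cacnb1 was 1.41 (SE 0.24) higher, at least 2.39-fold (adjusted p = 8.96e-05). With the trend removed these differences were 0.46 (adjusted p = 0.140) and 0.27 (adjusted p = 0.346). The Cacnb3 call was also lost when the methods' t-test, in a simplified form without the correction over the probes of a transcript, replaced limma (adjusted p = 0.0613). Of all genes tested 45.5% were called between these conditions, 29.6% higher and 15.8% lower with 90/5. Within the 18/1 pattern, both were lower at 5 hr than at 2 hr, by -1.11 (SE 0.30, adjusted p = 0.00500) for Cacnb3 and by -1.14 (SE 0.24, at least 1.99-fold, adjusted p = 0.000700) for Cacnb1, in a comparison that called 44.2% of all genes, 15.3% higher and 28.8% lower. The Cacnb3 call was lost without array 4 (-0.97, adjusted p = 0.0682), and both calls were lost with the trend removed, at -0.13 (adjusted p = 0.701) for Cacnb3 and -0.16 (adjusted p = 0.576) for Cacnb1.

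On slide 2, where 90/5 2 hr and 18/1 5 hr lay side by side, Cacnb1 was higher in 90/5 2 hr, by a fitted 0.74 (SE 0.24, adjusted p = 0.0424). Its 90/5 2 hr values were 7.80, 7.52, 7.18 and 6.76. Only 2 of these 4 samples were well above background, so no bound on the fold is given. The samples of array 7 stood above those of array 8, and without array 7 the difference was 0.40 (adjusted p = 0.422). The call was lost in 6 of 12 fits that left out a sample or an array. With the G and C trend removed the difference was 0.17 (adjusted p = 0.647). Cacnb3 differed in the same direction by 0.86 (SE 0.30) and was not called (adjusted p = 0.0578). Of all genes tested 12.9% were called in this comparison and 10.1% were called higher. When each comparison was fitted on its own samples alone, no gene of the array was called here, and Cacnb1 had an adjusted p of 0.436.

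Cacnb4, the third β subunit gene on the list and one with a wide distribution in neurons, was read by 1 probe (A_55_P2289707, NM_001037099, chr2:52289964-52290023 on the minus strand of mm9, 40% G and C bases). Its values were 10.94, 10.62, 10.63 and 10.39 in unstimulated neurons and 11.48, 11.05, 10.93 and 10.78 after 18/1 for 5 hr, a difference of 0.42 (SE 0.31, adjusted p = 0.292) with overlapping samples. In the 9 comparisons its differences ran from -0.58 to 0.42 and none was called.

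**Figure D1:**
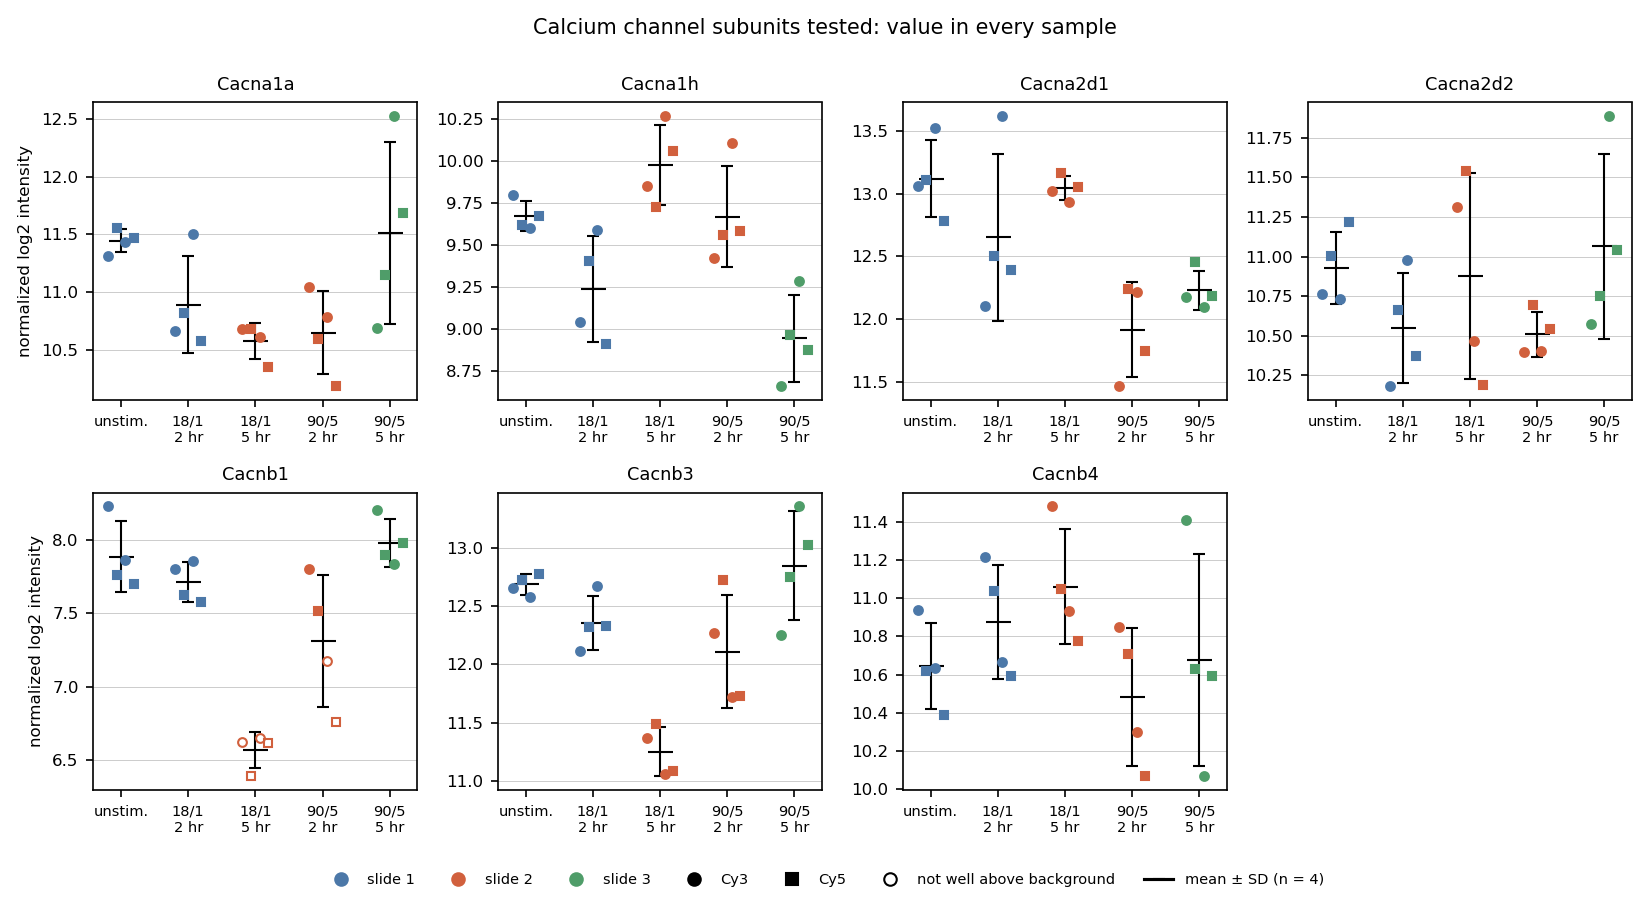
Normalized log2 intensity (vertical axis, a scale of its own for each gene) of the 7 subunit genes tested, in the 4 samples of each of the 5 conditions (horizontal axis), with the mean and SD; colour gives the slide, circles and squares the Cy3 and Cy5 samples, and open symbols samples not well above background. Cacnb1 and Cacnb3 were lowest in the 18/1 5 hr samples, at 6.39 to 6.65 and 11.06 to 11.49, below all other samples.

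The α2δ subunit gene Cacna2d1, which encodes the main gabapentin-binding subunit of sensory neurons, was the only member with 2 probes that passed the filter, and these gave different answers. Their first 30 bases are shown because these probes of one gene differ in base composition, with 45% G and C in the first and 35% in the second.
Cacna2d1 A_51_P498720: agttacattaaataggagtcggttgaagaa
Cacna2d1 A_55_P1988699: ccttattatgttctctggacacttttgtgg
The first (NM_009784) is at chr5:15876550-15876609 and the second (NM_001110843) at chr5:15880152-15880211, both on the plus strand of mm9.

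The probe A_55_P1988699 stood for the gene in the fit across genes because its mean over all 20 samples was the higher. That mean takes in the conditions compared, in which A_51_P498720 differed, so the choice between the probes rests partly on the values under test and the call of the gene depends on it. With A_55_P1988699 unstimulated neurons had values of 13.06, 13.11, 13.52 and 12.78, and 18/1 5 hr samples had 13.02, 13.16, 12.94 and 13.05. The 18/1 5 hr values lay within the unstimulated range, with a difference of -0.07 (SE 0.40, adjusted p = 0.899). With A_51_P498720 the unstimulated values were 12.80, 12.92, 13.42 and 13.43 and the 18/1 5 hr values 9.68, 9.80, 11.58 and 11.98, all below the unstimulated samples, with a difference of -2.38 (SE 0.49, adjusted p = 0.000715 in a fit of all 12137 probes that passed, which called 45.1% of them). In that fit A_51_P498720 was also lower after 18/1 for 5 hr than for 2 hr (-2.25, adjusted p = 0.00117, with 45% of probes called) and higher with 90/5 than with 18/1 at 5 hr (2.01, adjusted p = 0.00253, with 45.9% called), whereas A_55_P1988699 was called in neither. The change in one probe relative to the other was thus 2.31, which had an exact two-sided permutation p of 0.0286 over samples, the smallest that 4 against 4 allow, and 0.0623 after Benjamini-Hochberg adjustment over 24 such tests of probe pairs. The samples of an array are not independent, and with the mean of each array as the unit the exact p was 0.333, the smallest that 2 against 2 arrays allow. Among 1564 genes with 2 or more passing probes, the median gap between probes in this comparison was 0.92, and 9.14% of them had a gap at least as large as that of Cacna2d1. In the comparison of 18/1 2 hr with unstimulated neurons, within slide 1, the median gap was 0.14 and that of Cacna2d1 was 0.34.

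Under the 90/5 pattern both Cacna2d1 probes read lower at 2 hr than in unstimulated neurons. A_55_P1988699 gave 11.46, 12.24, 12.22 and 11.75, all below the 4 unstimulated samples, a difference of -1.20 (SE 0.40, adjusted p = 0.0727), and A_51_P498720 gave 12.12, 12.50, 10.85 and 11.15, also all below, a difference of -1.48 (SE 0.49, adjusted p = 0.0755). Neither was called. At 5 hr of 90/5, A_55_P1988699 gave 12.18, 12.45, 12.10 and 12.18, again below all unstimulated samples (difference -0.89, SE 0.40, adjusted p = 1.00), whereas A_51_P498720 overlapped them (difference -0.37, SE 0.49). Without the arrays of slide 2 the 5 hr difference of A_55_P1988699 had an SE of 0.28 and an adjusted p of 0.111.

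Cacna2d2, the second α2δ gene, was called in none of the 9 comparisons through its passing probe A_55_P1976734 (chr9:107431245-107431304, plus strand of mm9, 55% G and C). This probe gave 10.77, 11.004, 10.73 and 11.22 in unstimulated neurons and 11.31, 11.54, 10.47 and 10.19 after 18/1 for 5 hr, where array 5 lay above and array 6 below the unstimulated samples. Its neighbour A_55_P2122879 (chr9:107431615-107431674, 21.7% G and C), which failed the filter, gave 8.05, 7.91, 8.03 and 7.67 in unstimulated neurons and 8.35, 8.58, 8.58 and 8.58 after 18/1 for 5 hr, with 2 of these 4 spots marked as non-uniform.

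**Figure D2:**
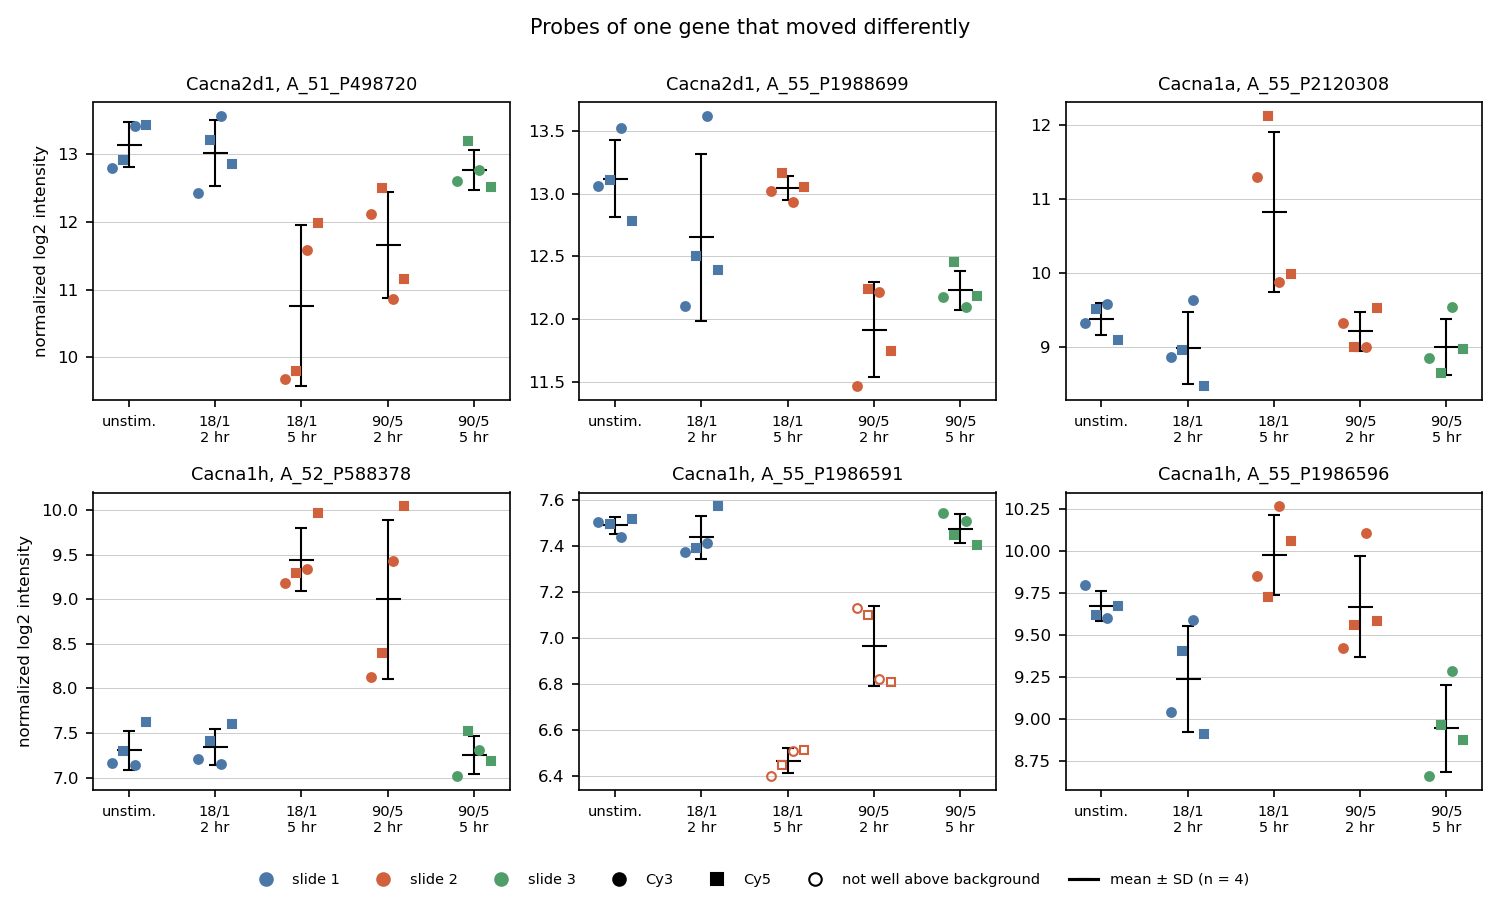
Normalized log2 intensity (vertical axes) in the 4 samples of each condition (horizontal axes), with the mean and SD, for both probes of Cacna2d1, the Cacna1a probe that failed the filter and the 3 probes of Cacna1h; symbols as in the plot of the 7 genes. At 18/1 5 hr the Cacna2d1 probes gave 9.68 to 11.98 and 12.94 to 13.16, and the Cacna1h probes moved apart on slide 2, one up to 9.18 to 9.96 and another down to 6.40 to 6.51.

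Cacna1h, which encodes the pore of the T-type channel that opens near the resting potential and tunes the excitability of many sensory neurons, was the only α1 gene with a passing probe called between the stimulus patterns at 5 hr, and its 3 probes did not share a direction there. Its passing probe A_55_P1986596 (NM_021415, chr17:25511235-25511294, minus strand of mm9, 41.7% G and C) gave 9.80, 9.62, 9.60 and 9.67 in unstimulated neurons. After 5 hr the values were 9.85, 9.72, 10.27 and 10.06 with 18/1 and 8.66, 8.96, 9.28 and 8.88 with 90/5, so that the patterns did not overlap. The difference of 90/5 from 18/1 was -1.03 (SE 0.28, 2.04-fold lower, adjusted p = 0.00573). This call was lost without array 9 (-0.89, adjusted p = 0.0532) and when arrays were centred on their medians alone (-0.22, adjusted p = 0.592). In the fit of all probes without a filter, which called 26.7% of probes in this comparison, the probe A_52_P588378 was lower with 90/5 by -2.19 (SE 0.37, adjusted p = 0.000508), but A_55_P1986591 was higher, at least 1.73-fold (fitted difference 1.01, SE 0.15, adjusted p = 0.000183). The call of Cacna1h is thus that of its passing probe.

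Against unstimulated neurons Cacna1h was called under neither pattern. Within slide 1 all 4 samples of 18/1 2 hr lay below the 4 unstimulated samples with the passing probe, at -0.44 (SE 0.28, adjusted p = 1.00). In the fit of all probes without a filter, A_52_P588378 and A_55_P1986591 differed by 0.04 and -0.05 in that comparison. With the passing probe all 4 samples of 90/5 5 hr also lay below the unstimulated samples, at -0.73 (SE 0.28, unadjusted p = 0.0177 and adjusted p = 1.00 in limma). In the fit without slide 2, which keeps both conditions whole, the same difference had an SE of 0.18 and an adjusted p of 0.0481. Cacna1h was then called, as were 272 of the 10355 genes against 7 in the fit with every slide. This call is that of the passing probe, since A_52_P588378 and A_55_P1986591 differed by -0.05 and -0.01 after 90/5 for 5 hr. From 2 hr to 5 hr of 18/1, Cacna1h was higher by 0.74 (SE 0.28, adjusted p = 0.0395), with 18/1 2 hr values of 9.04, 9.40, 9.59 and 8.91 below all 18/1 5 hr values. That call was lost in 6 of 12 fits that left out a sample or an array, and under median centring alone the difference was 0.02. In the fit of all probes without a filter, A_52_P588378 was also higher at 5 hr of 18/1 than at 2 hr, by 2.10 (SE 0.37, adjusted p = 0.000854). The probe A_55_P1986591 was lower, at least 1.68-fold (fitted difference -0.97, SE 0.15, adjusted p = 0.000336).

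The other Cacna1h probes failed the filter and are shown because these probes of one gene differ widely in base composition, with 28.3% G and C in the first and 63.3% in the second.
Cacna1h A_52_P588378: tctctaccttgtgtgtttaactgtataaat
Cacna1h A_55_P1986591: cttcttctgcctcgggcaaaccacgcggcc
They lie at chr17:25568825-25568884 and chr17:25569818-25569877 on the minus strand of mm9. In the fit of all probes without a filter, which called 25.5% of probes in 18/1 5 hr and 1.44% in 90/5 2 hr against unstimulated neurons, A_52_P588378 rose after 18/1 for 5 hr by 2.14 (SE 0.37, adjusted p = 0.000711) and A_55_P1986591 fell by 1.02 (SE 0.15, adjusted p = 0.000214), to values not well above background in any of the 4 samples (at least 1.74-fold lower). The rise of the former went from 7.16, 7.29, 7.14 and 7.62 to 9.18, 9.29, 9.34 and 9.96, with 2 spots marked as non-uniform. After 90/5 for 2 hr, on the same slide, A_52_P588378 was also higher, by 1.69 (SE 0.37, adjusted p = 0.0288), and A_55_P1986591 was well above background in no sample (at least 1.24-fold lower, fitted difference -0.52, SE 0.15, adjusted p = 0.0901, not called), while after 90/5 for 5 hr the differences of both lay between -0.05 and -0.01. The 90/5 2 hr values of A_52_P588378 were 8.13 and 8.40 on array 7, and 9.42 and 10.04 on array 8, whose Cy5 spot was marked as non-uniform. No single direction for Cacna1h, after 18/1 for 5 hr, between the 18/1 times or between the patterns, follows from its 3 probes.

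Cacna1a, which encodes the pore of the P/Q-type channel of nerve terminals, was read by 2 neighbouring probes. The passing probe A_55_P2142393 (NM_007578, chr8:87163723-87163782, plus strand of mm9, 45% G and C) gave 11.32, 11.56, 11.44 and 11.47 in unstimulated neurons and 10.68, 10.68, 10.61 and 10.35 after 18/1 for 5 hr, all lower (difference -0.86, SE 0.38, adjusted p = 0.0702, not called). The 90/5 2 hr values of 11.04, 10.59, 10.78 and 10.18 were also all below the unstimulated samples (difference -0.79, SE 0.38, adjusted p = 0.217, not called). At 90/5 5 hr the samples spread from 10.69 to 12.53 around the unstimulated level.

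Its other probe, A_55_P2120308 at chr8:87163946-87164005 with 35% G and C, failed the filter because all 4 spots of 18/1 5 hr were marked as non-uniform. There it read higher, with 11.30, 12.12, 9.89 and 9.99 against 9.33, 9.52, 9.58 and 9.09 in unstimulated neurons (difference 1.44, SE 0.63, adjusted p = 0.102 in the fit of all probes). With 90/5 for 5 hr it was lower than with 18/1 for 5 hr, by -1.82 (SE 0.63, adjusted p = 0.0418 in that fit), whereas the passing probe read the other way, at 0.93 (SE 0.38, adjusted p = 0.0507, not called), with all 90/5 5 hr samples above all 18/1 5 hr samples. The change in one of these probes relative to the other was 2.31 (exact permutation p = 0.0286 over samples, adjusted 0.0623, and 0.333 over array means).

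For Cacna1b, the pore of the N-type channel, the single probe A_55_P2078040 (chr2:24473205-24473264, minus strand of mm9) was under 2 times background in 19 of 20 samples and well above background in 1, with normalized values from 6.24 to 6.74. Whether the transcript is low in these neurons or the probe is weak cannot be told apart here. Cacna1c, the pore of the main neuronal L-type channel, was under 2 times background in 12 of 20 samples with its probe A_55_P2014154 (chr6:118544079-118544138, minus strand), and its values ran from 6.50 to 7.78. Cacna1e, the pore of the R-type channel, had values of 6.41, 6.30, 6.54 and 6.59 in unstimulated neurons with A_52_P1180358 (chr1:156240286-156240345, minus strand), none of them well above background. After 18/1 for 5 hr it gave 6.76, 7.04, 7.72 and 7.89, of which the 2 of array 6 were well above background and all 4 were marked as non-uniform (fitted difference 0.89, SE 0.26, adjusted p = 0.0189 in the fit of all probes without a filter). With array 5 not well above background, no bound on the fold is given. In the other 3 stimulated conditions no Cacna1e sample was well above background, and with 90/5 for 5 hr it was lower than with 18/1 for 5 hr by a fitted -0.96 (SE 0.26, adjusted p = 0.0120 in that fit).

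The comparisons with unstimulated neurons share the same 4 control samples. After 18/1 for 2 hr none was called by limma, none had an unadjusted p under 0.05 and none passed a simplified form of the methods' t-test, run without adjustment, without the correction over the probes of a transcript and with a fixed fold threshold, in a comparison that called 0.0193% of all genes. With the replicate number as a block, since the numbers were taken as paired in this comparison, no member and 7 of all genes were called by limma. That fit also held the 90/5 5 hr samples, whose numbers do not pair with the unstimulated ones. It had no array block, so the samples of an array counted as independent. The block fit gave the passing probe of Cacna1h a difference of -0.44 (unadjusted p = 0.0146 and adjusted p = 0.287 in limma) and that of Cacna1a one of -0.55 (unadjusted p = 0.0409 and adjusted p = 0.359 in limma). The passing probe of Cacna1h was lower in all 4 pairs, which any pairing would give because the samples of these conditions did not overlap. The median difference of the members was -0.38, and 6 of 7 means were below the unstimulated mean, while the median over all genes was -0.0047 with 5277 of 10355 below. After 90/5 for 2 hr no member was called, in a comparison that called 7.03% of all genes. An unadjusted p under 0.05 was found for 3 of the 7 members and 2381 of all 10355 genes, and 2 members (Cacna1a and Cacna2d1) and 2138 of all genes passed the simplified test. The means of all 7 members and of 5865 of all genes were below the unstimulated mean, with a median of -0.57 against -0.08 for all genes. With each sample's trend on the G and C content of the probes removed, the median of the members in this comparison was -0.11. The 90/5 pattern at 5 hr called no member and 0.0676% of all genes, with a median difference of 0.07 against -0.01. Cacna1h and Cacna2d1 had an unadjusted p under 0.05, as did 382 of all genes, and both passed the simplified test, as did 578 of all genes.

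Between the patterns at 2 hr no member was called, none had an unadjusted p under 0.05, none passed the simplified test, and 5.02% of all genes were called. From 2 hr to 5 hr of the 90/5 pattern no member was called and 9.01% of all genes were. An unadjusted p under 0.05 was found for 4 of the 7 members and 2408 of all 10355 genes, and 2 members (Cacna1h and Cacnb1) and 1773 of all genes passed the simplified test. In 18/1 5 hr against unstimulated neurons the median difference of the members was -0.07 and that of all genes was -0.23. In pooled cultures such as these, fewer cells of a type and less RNA per cell cannot be told apart.

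The change from 2 hr to 5 hr differed between the patterns for 3 of the 7 members tested, by a term that called 44.9% of all genes, so that their share was near the background. The change with 90/5 minus that with 18/1 was 1.84 (SE 0.42, adjusted p = 0.00137) for Cacnb3, 1.81 (SE 0.33, adjusted p = 0.000213) for Cacnb1 and -1.46 (SE 0.40, adjusted p = 0.00554) for the passing probe of Cacna1h. The other Cacna1h probes did not share a direction. From 2 hr to 5 hr A_52_P588378 changed by -1.74 with 90/5 and 2.10 with 18/1, and A_55_P1986591 by a fitted 0.51 with 90/5 and -0.97 with 18/1. For the other 4 tested members it was not called. Among the tested members Cacnb1 and Cacnb3 were also the most alike over the 20 samples, with a Pearson r of 0.84. This correlation describes samples that share arrays and slides, and it was 0.59 over the 16 samples other than 18/1 5 hr. By slide it was 0.34 over the 8 samples of slide 1, 0.84 over the 8 of slide 2 and -0.88 over the 4 of slide 3, so that its sign was not the same on all slides.

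**Figure D3:**
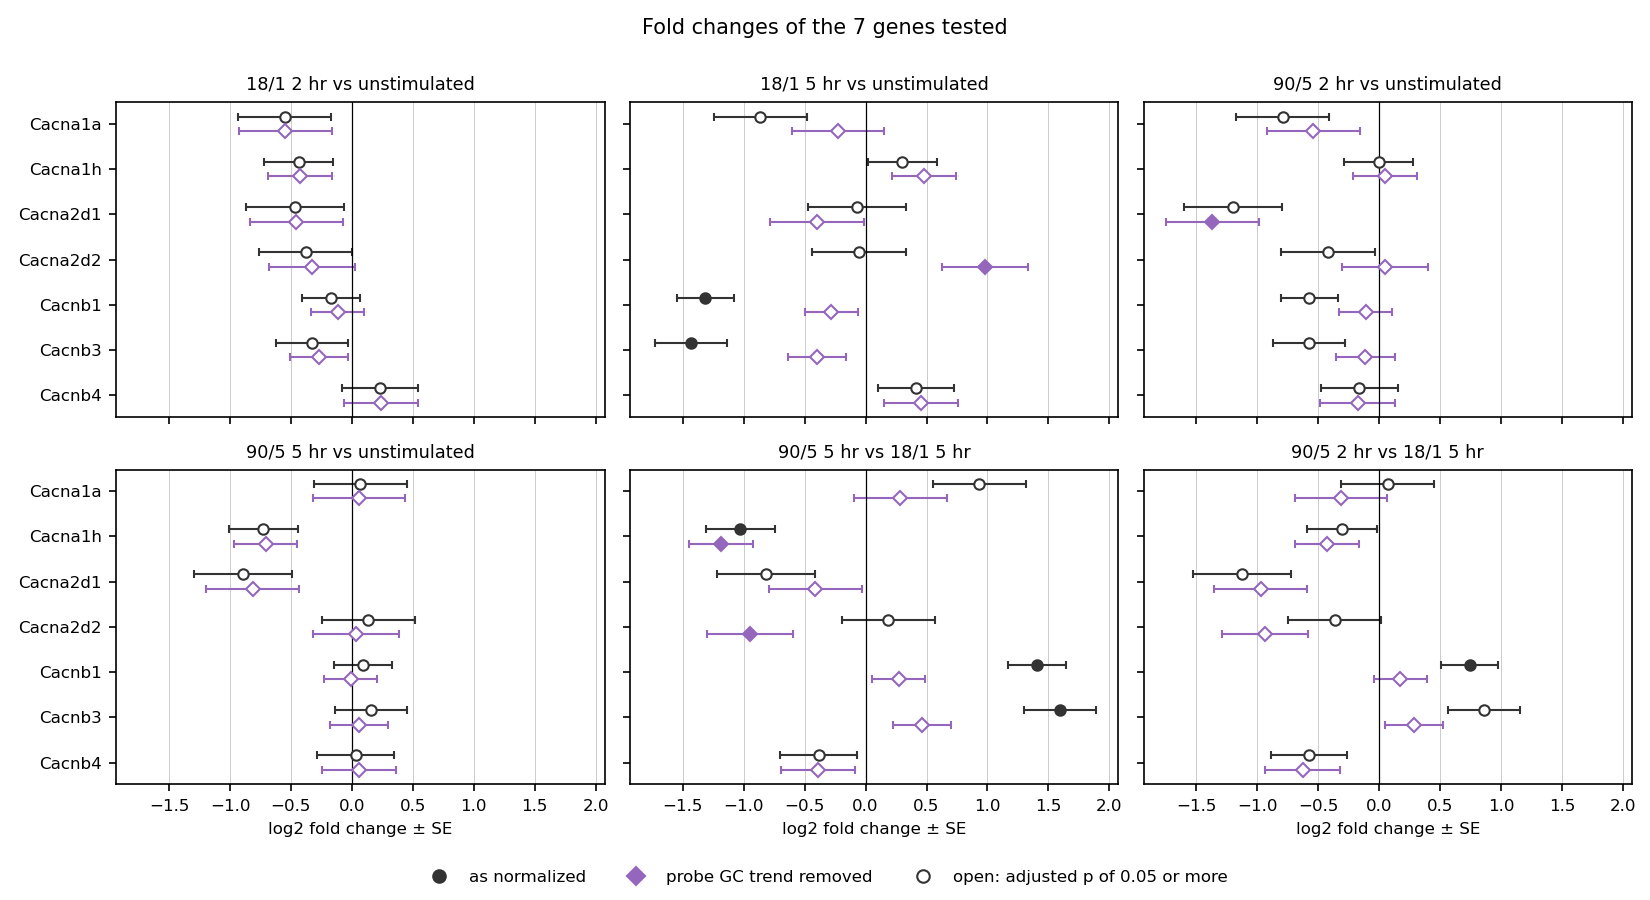
Log2 fold change and SE (horizontal axes) of the 7 tested genes (vertical axes) in 6 comparisons, from the limma fit as normalized (circles) and after each sample's trend on the G and C share of the probes was removed (diamonds), with filled symbols for adjusted p under 0.05. Cacnb1 at 18/1 5 hr moved from -1.32 to -0.28 and Cacnb3 from -1.44 to -0.40, whereas the 18/1 2 hr values moved little.

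In the samples of slide 2 the values of the probes followed their base composition. Over the 15 probes of the 10 genes, the difference of 18/1 5 hr from unstimulated neurons had a Pearson r of -0.65 and a Spearman rho of -0.74 with the share of G and C bases, as a description of probes that share the same arrays. The 6 probes with 40% G and C or less had a median difference of 0.75 and the 9 others of -0.86. Over all 12137 probes that passed, r was -0.44, and the medians were 0.24 for 5361 probes with 40% or less and -0.65 for the other 6776. For 90/5 2 hr against unstimulated neurons, r was -0.53 over the probes of the members and -0.35 over all probes. The comparisons within a slide differed in this. On slide 1, r was -0.10 over the members' probes and -0.05 over all probes for 18/1 2 hr against unstimulated neurons, and on slide 2 it was 0.51 and 0.38 for 90/5 2 hr against 18/1 5 hr, so that the trend also differed between the 2 conditions of slide 2. For 90/5 5 hr, on slide 3, r was 0.39 and 0.19.

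Both β subunit probes hold 55% G and C, and the 1727 passing probes with over 50% and up to 55% had a median difference of -1.003 in 18/1 5 hr against unstimulated neurons, with quartiles of -1.46 and -0.46. The Cacnb1 value of -1.32 lay within these quartiles and the Cacnb3 value of -1.44 did so as well. When each sample's trend on the G and C share was removed, neither gene was called: the difference became -0.28 (SE 0.22, adjusted p = 0.322) for Cacnb1 and -0.40 (SE 0.24, adjusted p = 0.196) for Cacnb3. By its construction this step also takes out any true change that goes along with base composition.

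Other members gained or kept calls after that step, which called 36.2% of all genes in 18/1 5 hr and 5.6% in 90/5 2 hr against unstimulated neurons, 35.4% between the patterns at 5 hr, 36.3% between the 18/1 times and 34.6% for the difference of the patterns in their change over time. The difference of Cacna1h between 90/5 and 18/1 at 5 hr was -1.19 (SE 0.26, adjusted p = 0.00182), and its change from 2 hr to 5 hr still differed between the patterns, by -1.66 (SE 0.37, adjusted p = 0.00183). Cacna2d1 was then called lower after 90/5 for 2 hr, by -1.37 (SE 0.38, adjusted p = 0.0380), and Cacna2d2 was called higher after 18/1 for 5 hr, by 0.98 (SE 0.35, adjusted p = 0.0345), which was -0.05 before. As normalized, the arrays of 18/1 5 hr lay on opposite sides of the unstimulated samples for Cacna2d2. Between the 18/1 times Cacna2d2 was called higher at 5 hr, by 1.31 (SE 0.35, adjusted p = 0.00731), and Cacna1h by 0.90 (SE 0.26, adjusted p = 0.0113), and between the patterns at 5 hr Cacna2d2 was called lower with 90/5, by -0.95 (SE 0.35, adjusted p = 0.0418). For Cacnb1 and Cacnb3 the difference of the patterns in their change over time was 0.27 (adjusted p = 0.523) and 0.30 (adjusted p = 0.510).

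**Figure D4:**
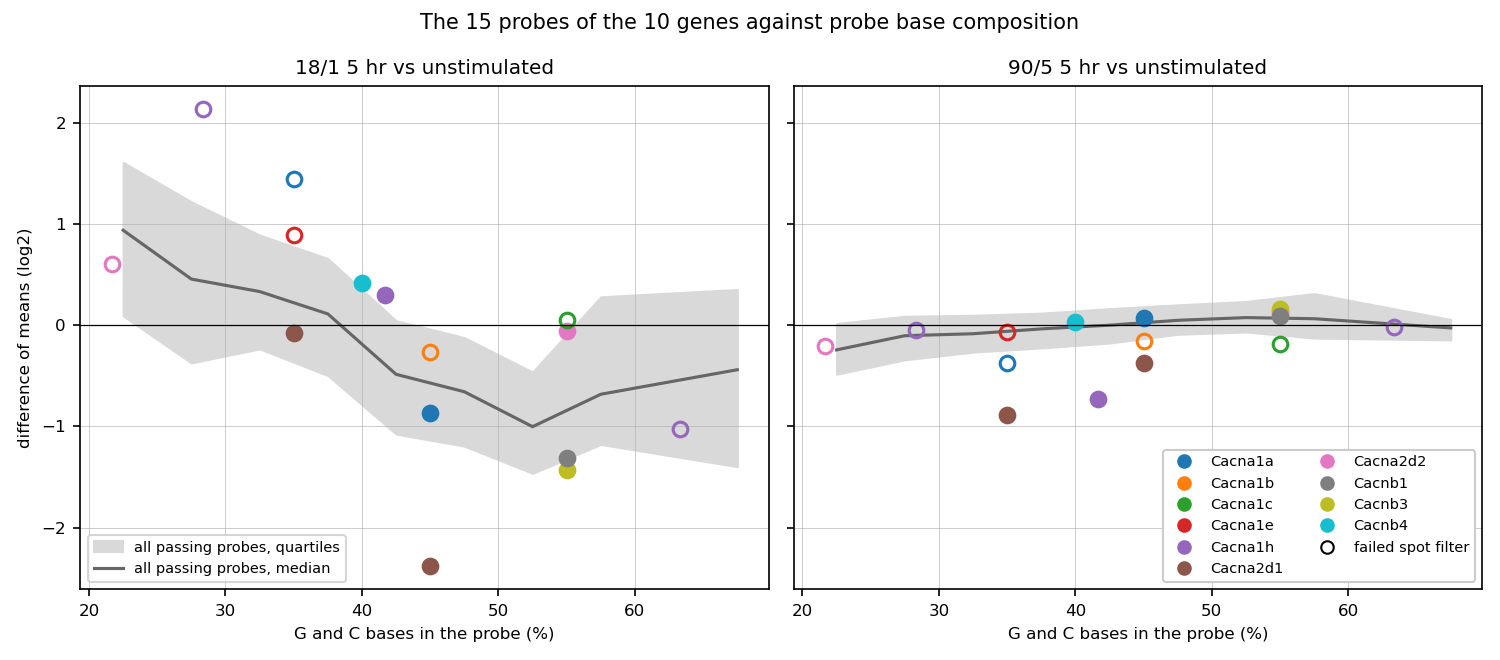
Difference of condition means on the log2 scale (vertical axis) against the share of G and C bases in each of the 15 probes of the 10 genes (horizontal axis, percent), for 18/1 5 hr (left) and 90/5 5 hr (right) against unstimulated neurons; filled symbols passed the spot filter, and the line and band give the median and quartiles of all passing probes in steps of 5% that hold at least 20 probes. On the left Cacnb1 and Cacnb3 lie at -1.32 and -1.44 at 55%, where Cacna2d2 and Cacna1c lie near 0, with r of -0.65 over all 15 probes, and on the right the probes lie between -0.89 and 0.16.

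Promoters of the 2 β subunit genes called lower after 18/1 for 5 hr, before the G and C trend was removed, were taken from RefSeq (build GRCm38.p6), as windows of 300 bases from 250 before to 50 after a gene start. The table of promoters holds 14 windows for 8 of the 10 genes, and Cacna1a and Cacna1h are not in it. For each gene the more upstream of its 2 windows in that table is shown, although the RefSeq gene extends further upstream in both, for Cacnb1 chr11:98022578-98022877 on the minus strand and for Cacnb3 chr15:98632078-98632377 on the plus strand, with the GC box (GGGCGG on either strand) in capitals.
Cacnb1 promoter: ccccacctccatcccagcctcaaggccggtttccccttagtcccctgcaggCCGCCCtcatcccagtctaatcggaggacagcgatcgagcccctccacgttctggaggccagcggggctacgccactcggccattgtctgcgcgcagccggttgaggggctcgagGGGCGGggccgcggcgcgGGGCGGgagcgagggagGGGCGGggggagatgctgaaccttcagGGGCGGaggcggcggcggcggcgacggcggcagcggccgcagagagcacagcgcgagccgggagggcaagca
Cacnb3 promoter: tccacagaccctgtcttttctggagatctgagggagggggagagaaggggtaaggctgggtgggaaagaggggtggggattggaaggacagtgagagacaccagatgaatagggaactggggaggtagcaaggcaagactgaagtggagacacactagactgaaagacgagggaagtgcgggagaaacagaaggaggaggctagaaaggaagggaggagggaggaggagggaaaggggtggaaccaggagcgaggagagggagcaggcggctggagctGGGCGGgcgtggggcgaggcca
The first holds 5 and the second 1 match to the GC box, whereas the window not shown holds 0 for Cacnb1 and 4 for Cacnb3. The box was in 8 of the 14 windows and in 35.7% of all 32851 windows. The letters TGACG, the core of the cAMP response element through which calcium entry can act on transcription, searched on both strands, were in 3 of the 14 windows, those of Cacna1b, Cacna2d1 and 1 of 3 for Cacna1c, and in 20.8% of all windows. The whole element TGACGTCA, which contains that core, and the AP-1 site TGANTCA were in none of the 14 windows and in 1.79% and 7.81% of all. The Egr site GCGNGGGCG, whose end overlaps the letters of the GC box, was in 4 of the 14 windows, of Cacna1b, Cacna1c, Cacna2d1 and Cacna2d2, and in 5.55% of all. A match describes letters in the window and does not show that a factor binds there.

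Of 16 other subunit genes of the family on the array, which include the L-type pore genes Cacna1d and Cacna1s and the β subunit gene Cacnb2, 3 passed the filter (Cacna2d3, Cacng5 and Cacng7) and none was called by limma in any of the 9 comparisons. These comparisons called from 0.0193% to 45.5% of all genes. After 18/1 for 5 hr 2 of the 3 had an unadjusted p under 0.05, as did 5408 of all 10355 genes: Cacna2d3, an α2δ subunit gene, at -0.88 (SE 0.39, adjusted p = 0.0712), and Cacng5 at a fitted -1.02 (SE 0.45, adjusted p = 0.0691). The Cacna2d3 samples of 18/1 5 hr disagreed, running from 9.31 to 11.59 as normalized, against 11.11 to 11.52 in unstimulated neurons. The Cacng5 spot was dim, with no sample of 18/1 5 hr and 4 of 4 unstimulated samples well above background. The same bound as for Cacnb1 gave at least 1.99-fold between the means. That bound does not allow for the spread between samples, and the difference was not called. With the base composition trend removed, in a fit that called 36.2% of all genes in that comparison, both were called lower, Cacna2d3 at -1.03 (adjusted p = 0.0262) and Cacng5 at a fitted -1.48 (adjusted p = 0.0164). In the same fit both were also called higher with 90/5 than with 18/1 at 5 hr, at 0.98 (adjusted p = 0.0356) for Cacna2d3 and a fitted 1.49 (adjusted p = 0.0165) for Cacng5, where 35.4% of all genes were called, and both lower at 5 hr than at 2 hr of 18/1, at -0.94 (adjusted p = 0.0415) and a fitted -1.43 (adjusted p = 0.0193), where 36.3% were. Cacng7 was called in no comparison of that fit.

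Among 25 genes of channel partners and regulators, 11 were tested. After 18/1 for 5 hr, in a comparison that called 44.6% of all genes, 1 of the 11 rose and 2 fell: Calm3, a calmodulin gene, by 1.29 (SE 0.31, adjusted p = 0.00221), Stx1a, the syntaxin that binds presynaptic calcium channels, by -1.86 (SE 0.42, adjusted p = 0.00147), and Lrp1, a receptor that interacts with α2δ subunits, by -1.80 (SE 0.33, adjusted p = 0.000231). Their probes hold 28.3%, 53.3% and 55% G and C, and with the trend removed the Stx1a call was lost (-0.92, adjusted p = 0.0637), while Calm3 at 0.77 (adjusted p = 0.0358) and Lrp1 at -0.76 (adjusted p = 0.0344) were still called at smaller differences. After 90/5 for 2 hr only Calm3 of these 11 was called (1.17, SE 0.31, adjusted p = 0.0249), a share near the 7.03% of all genes called, and with the trend removed it was not (0.67, adjusted p = 0.175), while Gnb1, a G protein β subunit gene, then was (0.72, adjusted p = 0.0410, against 0.67 and 0.0684 before). No partner was called after 18/1 for 2 hr or 90/5 for 5 hr, where none had an unadjusted p under 0.05 and 0.0193% and 0.0676% of all genes were called.

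Of 25 genes for calcium clearance and stores, 15 were tested, and 2 rose and 6 fell after 18/1 for 5 hr, a share of the list near the 44.6% of all genes called. The 4 largest differences were in Ryr2, a calcium release channel of the endoplasmic reticulum (-2.56, SE 0.50, adjusted p = 0.000434), Atp2b3, a calcium pump of the plasma membrane (-2.22, SE 0.51, adjusted p = 0.00165), Slc8a3, a sodium-calcium exchanger (-2.01, SE 0.24, adjusted p = 3.63e-06), and Orai1, the pore of store-operated entry (-1.82, SE 0.22, adjusted p = 5.09e-06). All 4 were still called lower with the trend removed, by -2.64, -1.58, -1.83 and -1.18. Of the other 4 called genes, 2 lost their calls in that step, the plasma membrane pump gene Atp2b4 (-1.03 before and 0.0035 after, adjusted p = 0.994, with 3 of 4 samples of 18/1 5 hr well above background) and Stim1, the calcium sensor of the stores (1.25 before and 0.93 after, adjusted p = 0.121), and 2 kept them, Pvalb, a calcium buffer (1.14 before and 1.78 after, adjusted p = 0.000755), and Atp2a2, a pump of the endoplasmic reticulum (-0.91 before and -0.74 after, adjusted p = 0.0489). Orai2, a store-operated channel gene, gained a call, from -0.43 (adjusted p = 0.124) to -0.76 (adjusted p = 0.0132). These 5 are named here after their values were seen. Slc8a3 was also lower after 90/5 for 2 hr (-1.91, SE 0.24, adjusted p = 2.98e-05), the only gene of the 15 called there, where 7.03% of all genes were called. No gene of the list was called after 18/1 for 2 hr or 90/5 for 5 hr, where none had an unadjusted p under 0.05. These comparisons called 0.0193% and 0.0676% of all genes.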

How the data were processed

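Cultures of mouse neurons in 5 conditions were measured on 10 Agilent arrays of 44397 spots with 2 colours, giving 20 samples. The authors deposited scanner output with spot intensity and local background per colour, written by Agilent Feature Extraction 10.7.1.1 for slide 1 and 10.7.3.1 for slides 2 and 3, per the file headers. From these intensities, normexp background correction with an offset of 50, loess within arrays and Aquantile between arrays gave log2 values (R 4.3.3, limma 3.58.1). Control spots had no weight and were then left out. Spots had to be at least 2 times their background and not marked as non-uniform in all 20 samples, as the study's methods filter them. Spots of a probe were averaged and the brightest passing probe stood for a gene, which left 10355 genes and 12137 probes. Differences were fitted with limma with condition and colour as terms and the array as a random block (correlation 0.529), with Benjamini-Hochberg adjustment over all genes within each of 9 comparisons and a threshold of 0.05. The script was tested on simulated data. Where no sample of a condition was well above background and all samples of the other were, the fold is a bound against, per sample, the higher of the probe's own value and the lowest value among probes well above background. The bound compares means of normalized values and does not allow for the spread between samples. Figures were drawn with Python 3.11.15, numpy 2.4.6 and matplotlib 3.10.9.

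The members and the lists of markers, other subunits, partners and clearance genes were chosen with earlier results of these data known. All members are named with every probe, tested other subunits are named, and of the partner and clearance lists at most 4 called genes per comparison, those of largest difference, with 5 further clearance genes and 1 partner named after their values were seen. Replicate numbers are tied to a colour by the labels for unstimulated, 18/1 2 hr and 90/5 5 hr samples. Deviations of samples with the same number correlated by 0.41 to 0.72 between unstimulated and 18/1 2 hr, where a number also means the same colour, and the numbers were taken as paired there. Alternatives were no background subtraction, quantile normalization, median centring, other spot filters, saturated probes left out, every probe, array means, only the conditions compared, no slide 2, a replicate block, a simplified form of the methods' t-test (unequal variances, here on linear values, at least 1.4-fold when not adjusted, without their correction over probes of a transcript and their fold threshold set per transcript) and each sample or array left out. A lowess trend (span 0.3) of each sample on probe G and C content was removed as an alternative chosen after seeing the data. The number of arrays limits the precision. Probe positions are on mm9 as the array annotation gives them.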

Additional observations from a re-analysis of the deposited data

Results flagged for a closer look

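In 18/1 5 hr, 1 sample stood apart from the other 3 for 2 probes, by the gap to its neighbour over the range of the group (Dixon's ratio, above its 95% critical value for 4 samples). For the Cacna2d2 probe A_55_P2122879 the ratio was 0.97, with the Cy3 sample of array 5 at 8.35 and the others at 8.58. For the Cacnb1 probe it was 0.867, with the Cy5 sample of array 5 at 6.39 and the others at 6.62 to 6.65, none well above background. These were 2 of 75 groups of 4 samples examined, and chance gives about 5%.

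The change from 2 hr to 5 hr differed between the stimulus patterns for 3 of the 7 genes tested by the interaction term of the limma fit, which called 44.9% of all genes. Given as the change with 90/5 minus that with 18/1, it was -1.46 for Cacna1h, 1.81 for Cacnb1 and 1.84 for Cacnb3. After the trend on probe G and C content was removed, the values were -1.66 (adjusted p = 0.00183), 0.27 (adjusted p = 0.523) and 0.30 (adjusted p = 0.510), and Cacna2d2 then had -1.32 (adjusted p = 0.0461). The 4 conditions behind this term lie on 3 slides, so that slide and pattern cannot be told apart. The Cacna1h values are those of its passing probe. Its probe A_55_P1986591 went the other way under each pattern, by a fitted 0.51 from 2 hr to 5 hr with 90/5 and -0.97 with 18/1.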

How the results depend on the processing

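None of the 9 called differences of single members, as read by the probe that stood for each gene, changed sign under the alternatives run. The Cacna1h probe A_55_P1986591, which failed the filter, had the opposite sign in both called Cacna1h comparisons in the fit of all probes. It was a fitted 1.01 higher with 90/5 than with 18/1 at 5 hr, and a fitted -0.97 at 5 hr against 2 hr of 18/1. With every passing probe, Cacna2d1 joined the called members, which gave 3 for 18/1 5 hr against unstimulated neurons, 4 between the patterns at 5 hr and 4 between the 18/1 times. With the G and C trend removed, called members turned from 0 higher and 2 lower to 1 higher and 0 lower for 18/1 5 hr against unstimulated neurons, from 2 and 1 to 0 and 2 between the patterns at 5 hr, and from 1 and 2 to 2 and 0 between the 18/1 times. Of 112 alternative counts, leave-one-out fits aside, 99 stayed within 1.5 times the reported count and 13 did not. For 90/5 2 hr against 18/1 5 hr the count of 1 became 2 with median centring and 0 with the background rule alone, array means, only the conditions compared, the adjusted t-test or the G and C trend removed. With only the conditions compared no gene of the array was called. The shares of all genes called under the others are not given here, so these counts describe the members alone. For 90/5 5 hr against unstimulated neurons the count of 0 became 1 without slide 2 (Cacna1h, with 272 of all 10355 genes called against 7), and 2 with the replicate block (481 genes) or the t-test without adjustment (578 genes), Cacna1h and Cacna2d1 in both. The t-test without adjustment also gave 2 for 90/5 2 hr against unstimulated neurons and 2 for 90/5 5 hr against 90/5 2 hr. With the trend removed, 1 member was called at 18/1 5 hr (Cacna2d2) and 1 at 90/5 2 hr (Cacna2d1) against unstimulated neurons. The cause was not tested. With a sample or array left out, the counts were 0 to 0 for 18/1 2 hr, 2 to 2 for 18/1 5 hr, 0 to 3 for 90/5 2 hr and 0 to 0 for 90/5 5 hr against unstimulated neurons, 0 to 1 between the patterns at 2 hr and 3 to 4 at 5 hr, 1 to 3 for 18/1 and 0 to 3 for 90/5 between the times, and 0 to 3 for 90/5 2 hr against 18/1 5 hr. Array 7 left out gave 3 members at 90/5 2 hr against unstimulated (Cacna2d1, Cacnb1 and Cacnb3, with 2797 genes called against 728), 1 between the patterns at 2 hr (Cacnb1, 2563 genes against 520), 3 between the 90/5 times (2834 against 933) and 0 for 90/5 2 hr against 18/1 5 hr (59 against 1336), where array 5 left out also gave 0 (439), array 6 gave 2 (3553) and array 8 gave 3 (3464). Array 4 left out gave 1 (Cacnb1) between the 18/1 times (2575 against 4572). A lone array of a condition is assumed to vary like the others. Of 108 alternatives for called genes, leave-one-out fits aside, 19 lost the call. With a sample or array left out, the calls of Cacna1h between the 18/1 times and of Cacnb1 in 90/5 2 hr against 18/1 5 hr were each lost in 6 of 12 fits. Those of Cacnb3 between the 18/1 times and of Cacna1h between the patterns at 5 hr were each lost in 1 of 12. With median centring, 8.73% of called genes were higher in 18/1 5 hr against unstimulated neurons, against 33.5%, and 92.6% in 90/5 5 hr against 18/1 5 hr, against 65.2%. The replicate block changed no call of a member for 18/1 2 hr, with 7 genes of all called against 2. Its fit held the samples of slides 1 and 3 and had no array block. For 90/5 5 hr, deviations of same-numbered samples correlated by -0.05 to 0.48 with unstimulated samples, so the numbers do not pair there. Dim spots limit Cacnb1, Cacna1b, Cacna1c, Cacna1e and Cacng5.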
